A study of Mus musculus with 4 samples.

Results

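The genes described here are 10 genes of bone morphogenetic protein (BMP) signalling, taken by symbol from a table of 35976 gene rows: the ligand gene Bmp4, the receptor gene Bmpr1a, the signal-transducing SMAD genes Smad1 and Smad5, the inhibitory SMAD genes Smad6 and Smad7, and the target genes Id1, Id2, Id3 and Id4. All 10 were found, and all 10 passed the filter on low counts. They were measured by mRNA sequencing in mouse E14 embryonic stem cells, a line that the labels give as strain 12910la. The libraries were 2 controls (genotype given as wild type) and 2 of cells in which the transcript Lx8-SINE B2 was knocked down. The knockdown used short hairpin RNA from a pSuper puro vector. The transcript's name joins Lx8 and SINE B2, the latter a family of short interspersed repeats. All cells grew on gelatin with serum and LIF, and 1 description of transfection and puromycin selection covers all samples, without saying which vector the controls received. Only the knockdown titles carry the word batch, and an effect of such a batch cannot be told apart from the knockdown. The labels do not say whether libraries of 1 group were grown separately, so p-values here reflect just the spread among these 4 libraries, which may be technical. The libraries held 16383323 to 19867689 counts.

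BMP ligands bind a complex of type I receptors, such as BMPR1A, and type II receptors. The receptors phosphorylate SMAD1 and SMAD5, which enter the nucleus with SMAD4 and switch on target genes, among them the ID genes and the inhibitory SMADs. ID proteins hold a helix-loop-helix domain but no DNA-binding region, and they keep E proteins from pairing with lineage-determining factors. In mouse embryonic stem cells grown with LIF, BMP from serum acts through ID proteins to hold back neural differentiation.

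SMAD complexes of this pathway bind the letters GGCGCC and, more loosely, GTCT, so sequence before the start of the ligand gene and of 3 target genes is shown here to set those letters beside the values below. RefSeq promoter entries on GRCm38.p6, the same build as the mm10 of the submitters' processing notes, were found for 8 of the 10 genes. Id1 and Smad7 had no entry. Each window is the 250 bases before the RefSeq start, written 5′ to 3′ on the gene's strand, with every match to either motif, on either strand, in capitals. Bmp4 lies on the minus strand at chr14:46390670-46390919 and Id4 on the plus strand at chr13:48260866-48261115. For Id2 the stretch at chr12:25096254-25096342 (minus strand) is the part outside exons annotated by GENCODE M21. The Id3 window overlaps an annotated Id3 exon, and so do the stretches around its 2 motif matches. Only these stretches are shown, at chr4:136143646-136143669 and chr4:136143744-136143767 (plus strand).
Bmp4: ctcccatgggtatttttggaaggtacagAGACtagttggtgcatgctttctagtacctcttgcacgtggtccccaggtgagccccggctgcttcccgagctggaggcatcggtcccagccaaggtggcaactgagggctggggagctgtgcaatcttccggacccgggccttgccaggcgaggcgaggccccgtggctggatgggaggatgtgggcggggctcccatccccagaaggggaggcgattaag
Id2: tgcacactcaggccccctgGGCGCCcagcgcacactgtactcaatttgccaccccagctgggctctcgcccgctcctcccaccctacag
Id3: cctcggcgtcAGACcagcctaagg
Id3: acccttggcgGTCTgttttgaata
Id4: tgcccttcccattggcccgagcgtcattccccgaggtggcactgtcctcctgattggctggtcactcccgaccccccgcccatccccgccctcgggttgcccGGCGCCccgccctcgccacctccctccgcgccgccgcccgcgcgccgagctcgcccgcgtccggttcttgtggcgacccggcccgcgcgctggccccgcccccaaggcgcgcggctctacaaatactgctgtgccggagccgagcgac

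GGCGCC, which is its own reverse complement, was present in the windows of Id2 and Id4, beginning 231 and 148 bases before the start. The Bmpr1a window and 1 of the 3 Smad5 windows also held it, and both of these overlap annotated exons. GGCGCC was in 9.6% of all 32851 promoter entries cut the same way, a share per entry and not per gene. GTCT or its reverse complement AGAC was present in the windows of Bmp4, Smad5, Smad6, Id2 and Id3, and in 82.9% of all entries. Windows of Smad1 held neither motif. A match is a description of letters, not a binding site, and a window without one says nothing of the factor.

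None of the 10 genes passed edgeR's quasi-likelihood test at a Benjamini-Hochberg adjusted p of 0.05 over the 16209 genes tested. In the same fit 1.43% of all tested genes were called, 0.876% higher and 0.555% lower in the knockdown libraries. At an unadjusted p below 0.05 the list held 3 genes, a level that 19.6% of all tested genes reached. These were Id2 and Id3 on the higher side, where 11.0% of tested genes stood, and Bmp4 on the lower side, where 8.58% stood. DESeq2 called Id3 higher and Bmp4 lower and called 7.06% of the genes to which it gave an adjusted p. Limma-voom called 0 of the 10 genes and 1.49% of all genes. In edgeR, Id3 was called higher without control replicate 1 and Bmp4 lower without control replicate 2. The median log2 fold change of the 10 genes was 0.08, against 0.01 over all tested genes. In 5 of the 10 genes the libraries of the groups did not overlap: Smad1, Id1, Id2 and Id3 were higher in both knockdown libraries and Bmp4 was lower. Groups were apart in this way in 51.9% of all tested genes, 27.3% higher and 24.6% lower, so that count is near the background.

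**Figure D1:**
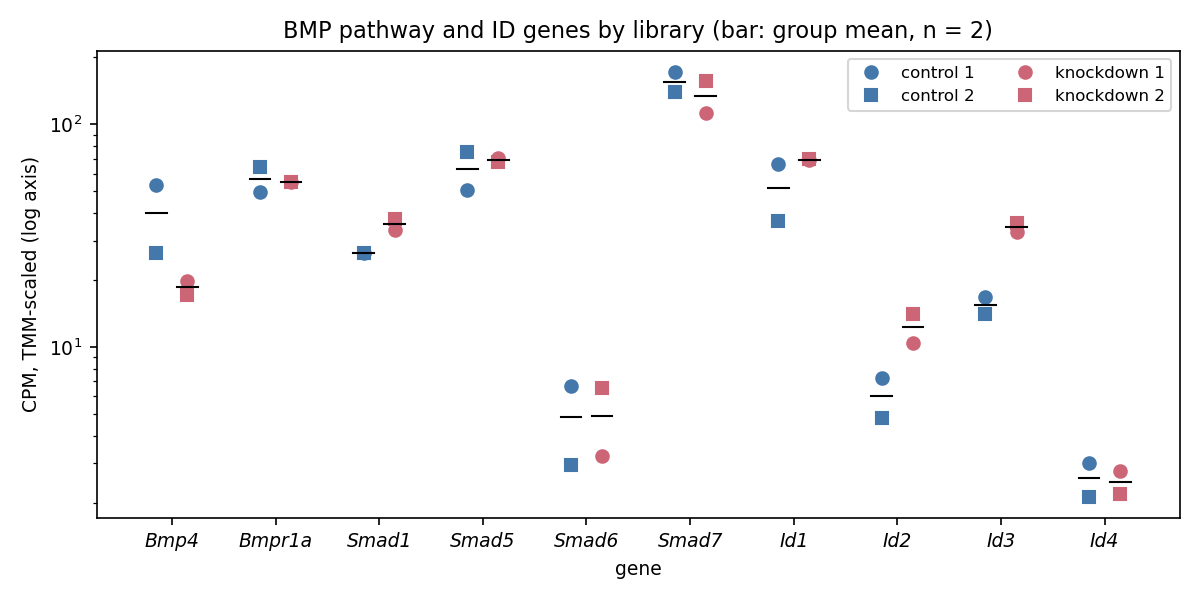
Level of each of the 10 genes in each library, as TMM-scaled CPM (read counts scaled to library size), on a log axis. Points are libraries and bars are group means (n = 2); Id3 sits at 14.1 and 16.9 CPM in the controls, against 33.0 and 36.0 CPM in the knockdown libraries, whereas the groups overlap for Smad6 and Id4.

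The ligand gene Bmp4 (chromosome 14, 46383525 to 46390669, minus strand, mm10), whose window is printed above, was at 53.4 and 26.5 CPM in the controls, against 19.9 and 17.2 CPM in the knockdown libraries. CPM here are counts scaled to an effective library size, and in bulk libraries fewer expressing cells and less RNA per cell cannot be told apart. Both knockdown libraries lay below both controls, but the gap between the controls was wider than the gap between control 2 and either knockdown library. The group means were 39.9 ± 19.1 and 18.5 ± 1.89 CPM (SD, n = 2 each). On the log2 scale the difference was -1.11 ± 0.33 (standard error, SE; 95% interval -1.88 to -0.34), a level 2.15-fold lower, and the edgeR adjusted p was 0.126. Leaving out control replicate 2 gave -1.58 and a call, and leaving out control replicate 1 gave -0.51, so its size rests on which control is kept. Over all 13 alternatives its adjusted p ranged from 0.00163 to 0.375. An exon of Gm15217 on the opposite strand covers 89 bases of Bmp4 exons, and as the strand setting of the counting is not given, reads there cannot be told apart.

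The type I receptor gene Bmpr1a (chromosome 14, 34411061 to 34503336) was not called. It was at 49.9 and 64.1 CPM in the controls, against 55.3 and 54.8 CPM in the knockdown libraries, which lay between the controls. The log2 fold change was -0.05 with a 95% interval from -0.51 to 0.41 (edgeR adjusted p = 0.920). That interval has no adjustment for the number of genes tested, and a change within it is not excluded. Larger changes could also go uncalled, as those of Bmp4, Id2 and Id3 did. The antisense gene Gm17110 covers 290 bases of its exons.

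The SMAD1 and SMAD5 proteins carry the signal from the receptor. Smad1 (chromosome 8, 79338395 to 79399428) was at 26.5 CPM in both controls and at 33.6 and 37.5 CPM in the knockdown libraries. Both knockdown libraries were higher, with a log2 fold change of 0.42, a 95% interval from -0.05 to 0.90 and an edgeR adjusted p of 0.304. It was the gene among the 10 whose controls lay closest together, with a control 1 to control 2 ratio of 0.999. Its value stayed between 0.34 and 0.50 in all 13 alternatives, and it was called in none of them. Smad5 (chromosome 13, 56703010 to 56742378) was at 50.9 and 75.2 CPM in the controls, against 70.8 and 68.0 CPM in the knockdown libraries. The knockdown values lay within the range of the controls, and the log2 fold change was 0.14 with an interval from -0.38 to 0.66 (edgeR adjusted p = 0.782). A small RNA gene, Gm27301, covers 100 bases of its exons on the same strand.

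SMAD6 and SMAD7 are inhibitory SMADs that BMP signalling itself induces and that block the receptors or the other SMADs. Smad7 (chromosome 18, 75367365 to 75395935) was at 172 and 140 CPM in the controls, against 113 and 156 CPM in the knockdown libraries. The groups overlapped, with a log2 fold change of -0.21 and an interval from -0.70 to 0.28 (edgeR adjusted p = 0.632). It was -0.0022 without knockdown replicate 1 and -0.46 without knockdown replicate 2. Smad6 (chromosome 9, 63953076 to 64022085) was at 6.71 and 2.96 CPM in the controls, against 3.24 and 6.57 CPM in the knockdown libraries. Each group held 1 high and 1 low library, and the log2 fold change of 0.02 had an interval from -1.20 to 1.24 (edgeR adjusted p = 0.990). Its sign followed the library left out: it was -0.58 when knockdown replicate 2 was omitted and 0.72 when control replicate 1 was. Neither inhibitor gene lay higher in both knockdown libraries, unlike Id1, Id2 and Id3. No test of the difference between genes was made.

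Id3 (chromosome 4, 136143822 to 136145392) came nearest to a call. It was at 16.9 and 14.1 CPM in the controls, against 33.0 and 36.0 CPM in the knockdown libraries. The knockdown libraries were both above the controls by far more than the libraries of a group differed from each other. The group means were 15.5 ± 1.94 and 34.5 ± 2.14 CPM (SD, n = 2 each). On the log2 scale the difference was 1.15 ± 0.23 (SE; 95% interval 0.62 to 1.69), a level 2.23-fold higher, and the edgeR adjusted p was 0.0557. It passed the threshold with DESeq2 (adjusted p = 0.00299), when low counts were not filtered and when control replicate 1 was left out (1.29, adjusted p = 0.0430). It did not pass when any other library was left out. Over all 13 alternatives its log2 fold change ranged from 0.98 to 1.29 and its adjusted p from 0.00248 to 0.197.

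Id2 (chromosome 12, 25093799 to 25096092, minus strand) was at 7.24 and 4.77 CPM in the controls, against 10.5 and 14.1 CPM in the knockdown libraries. Both knockdown libraries were higher, by 1.03 ± 0.36 on the log2 scale (SE; 95% interval 0.21 to 1.85) or 2.04-fold (edgeR adjusted p = 0.168). Its value lay between 0.71 and 1.36 over the 13 alternatives, none of which called it. Id1 (chromosome 2, 152736251 to 152737410) was at 66.2 and 36.9 CPM in the controls, against 69.2 and 69.7 CPM in the knockdown libraries. The knockdown libraries were close to control 1 and well above control 2. The log2 fold change of 0.43 had an interval from -0.20 to 1.06 (edgeR adjusted p = 0.431). It was 0.02 without control replicate 2 and 0.91 without control replicate 1, so its size rests on control replicate 2. Id4 (chromosome 13, 48261116 to 48266028) was low, at 3.01 and 2.13 CPM in the controls, against 2.77 and 2.19 CPM in the knockdown libraries, and the groups overlapped. Its log2 fold change was -0.05 with an interval from -1.09 to 1.00 (edgeR adjusted p = 0.967). Exons of A330033J07Rik and Gm49291 on the opposite strand cover 82 and 171 bases of its exons.

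Markers were read over the same libraries. All 8 embryonic stem cell markers were above 1 CPM, with Pou5f1 at 902 to 1256, Sox2 at 437 to 652 and Nanog at 580 to 928 CPM. Of these 8 genes, 0 rose and 1 fell, where 0.876% of all tested genes were called higher and 0.555% lower. The gene that fell was Tdgf1 (named after its values were seen), the gene of a Nodal coreceptor. It was at 1133 and 1552 CPM in the controls, against 571 and 602 CPM in the knockdown libraries (log2 fold change -1.19, edgeR adjusted p = 0.0438). That call was lost with library size only and without either knockdown library, at adjusted p = 0.0585, 0.131 and 0.157. Dppa5a, also named after its values were seen, was at 1437 and 1446 against 664 and 1021 CPM and was not called. The sum of the list was 7096 and 7188 CPM in the controls, against 5208 and 5704 CPM in the knockdown libraries. Only Tdgf1 and Dppa5a were lower in both knockdown libraries, as 24.6% of all tested genes were. Pou5f1, Sox2, Nanog, Zfp42, Esrrb and Klf4 overlapped between groups, so the lower sum is not a fall of every marker. Primitive endoderm markers, of which 6 of 8 were above 1 CPM and 0 of 6 tested were called, also differed in sum. They summed to 12.7 and 18.6 CPM in the controls, against 40.6 and 30.1 CPM in the knockdown libraries. Gata4, Gata6, Sox17, Sox7 and Pdgfra were higher in both knockdown libraries, as 27.3% of all tested genes were. Foxa2, Dab2 and Afp overlapped between groups, and Foxa2 and Afp did not pass the filter on low counts. Mesoderm markers (4 of 7 above 1 CPM) summed to 17.9 and 16.9 against 23.4 and 29.9 CPM. Of these sums Kdr (named after its values were seen) made 2.64 and 2.65 against 10.2 and 9.24 CPM. Mixl1 was also higher in both knockdown libraries, T and Mesp1 were lower, and Eomes, Tbx6 and Hand1 overlapped between groups. Mixl1, T and Mesp1 were below 1 CPM in every library, and Mesp1 did not pass the filter on low counts. The mesoderm list thus did not rise as a whole. Fibroblast markers (4 of 8, Lum at 0 in every library) summed to 30.2 and 37.6 against 20.5 and 21.1 CPM. Sums of neural (5 of 7), trophectoderm (4 of 7) and epidermal (1 of 5) markers overlapped between groups, at 111 to 134, 52.5 to 81.1 and 2.39 to 5.23 CPM. Among the tested fibroblast markers Thy1 and Pdgfrb were lower in both knockdown libraries, Twist1 was higher, and Col1a1 and Col1a2 overlapped. The endoderm and mesoderm sums were higher in both knockdown libraries, as Id2 and Id3 were, and the stem cell and fibroblast sums were lower, as Bmp4 was. Groups were apart in 51.9% of all tested genes, and any quantities that are apart go either together or opposite. The part of any of these sums in the values of the 10 genes was not tested.

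**Figure D2:**
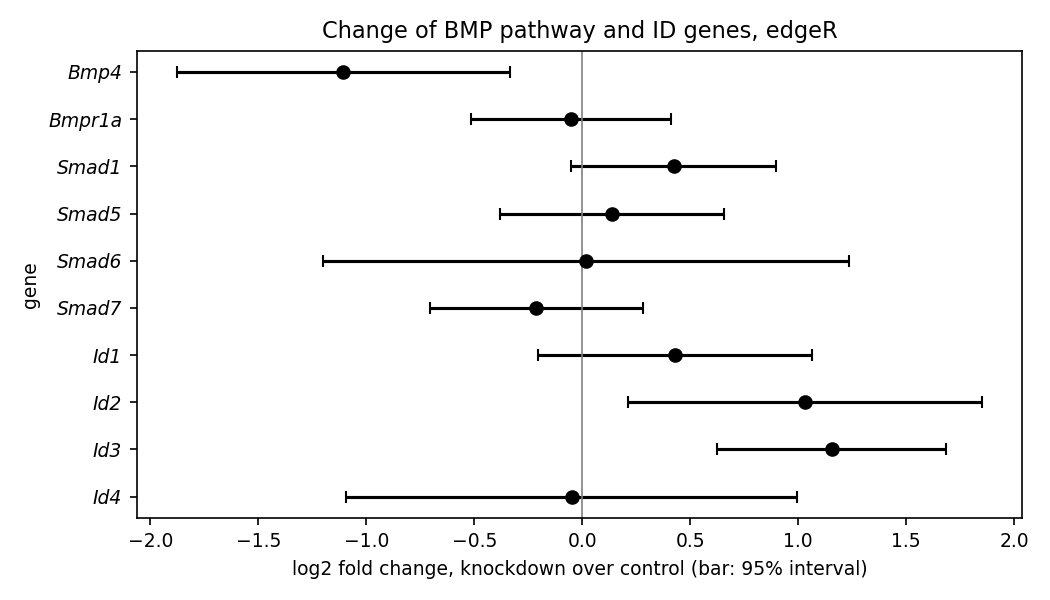
Log2 fold change of each gene, knockdown over control, from edgeR, with its 95% interval. The intervals of Bmp4, Id2 and Id3 lie to 1 side of 0 before any adjustment for the number of genes tested; those of Smad6 and Id4, the genes with the fewest counts, are the widest.

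Levels between genes were compared as CPM per kilobase of annotated exon (GENCODE M21). In the controls Id1 was highest, at 44.4 ± 17.9 CPM per kb (SD, n = 2), and overlapped Smad7 at 34.5 ± 5.07. Bmp4 followed at 17.8 ± 8.48, below Smad7 in both libraries. Bmpr1a at 8.97 ± 1.57, Id3 at 8.64 ± 1.08 and Smad5 at 8.50 ± 2.31 overlapped one another. Smad1 came next at 4.23 ± 0.0043, then Id2 at 2.46 ± 0.72 and Smad6 at 1.51 ± 0.83, which overlapped, and Id4 was lowest at 0.668 ± 0.163. In the knockdown libraries Id3 was the third of the 10 genes, at 19.3 ± 1.20 CPM per kb, above Bmp4 at 8.25 ± 0.84. In each control Bmp4 had been above Id3, at 23.8 and 11.8 against 9.41 and 7.88 CPM per kb.

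The makeup of the ID family was read from CPM per kb. Id1 made up 81.3% and 75.4% of the summed ID level in the controls, against 71.8% and 69.4% in the knockdown libraries. Id3 made up 13.4% and 18.7% in the controls, against 22.2% and 23.2% in the knockdown libraries. Id2 made up 4.23% and 4.64% in the controls, against 5.17% and 6.68% in the knockdown libraries. Id4 made up 1.11% and 1.31% in the controls, against 0.868% and 0.657% in the knockdown libraries. No share overlapped between groups, and for Id1 and Id3 control 2 was the control nearer to the knockdown libraries. The shares add up to the whole, so they cannot move independently. The Id1 share was lower although Id1 itself was higher in both knockdown libraries. The summed ID level was 70.2 and 42.2 CPM per kb in the controls, against 83.0 and 86.6 CPM per kb in the knockdown libraries. Shares were given as description, since 2 libraries against 2 cannot reach a small p by permutation.

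The controls differed from each other in most of these genes. Bmp4 was 2.02-fold higher in control 1 than in control 2, with a 95% interval from 1.81 to 2.25 that covers counting error only. Id1 was 1.79-fold higher (1.64 to 1.97), Id2 1.52-fold (1.16 to 2.00), Id3 1.19-fold (1.01 to 1.41), Smad7 1.23-fold (1.17 to 1.30) and Smad6 2.27-fold (1.65 to 3.16). Smad5 and Bmpr1a went the other way, with control 2 at 1.48-fold (1.36 to 1.60) and 1.28-fold (1.18 to 1.40) of control 1. In 8 of the 10 genes this interval excluded 1, against 3 of 10 between the knockdown libraries, which were Smad6, Smad7 and Id2. Over all tested genes it excluded 1 in 59.1% between the controls and in 47.1% between the knockdown libraries, and genes with more counts have narrower intervals. Between the controls Bmp4 and the 4 ID genes were thus all higher in the same library, the interval of Id4 alone including 1. Between the groups Bmp4 was lower where Id1, Id2 and Id3 were higher.

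**Figure D3:**
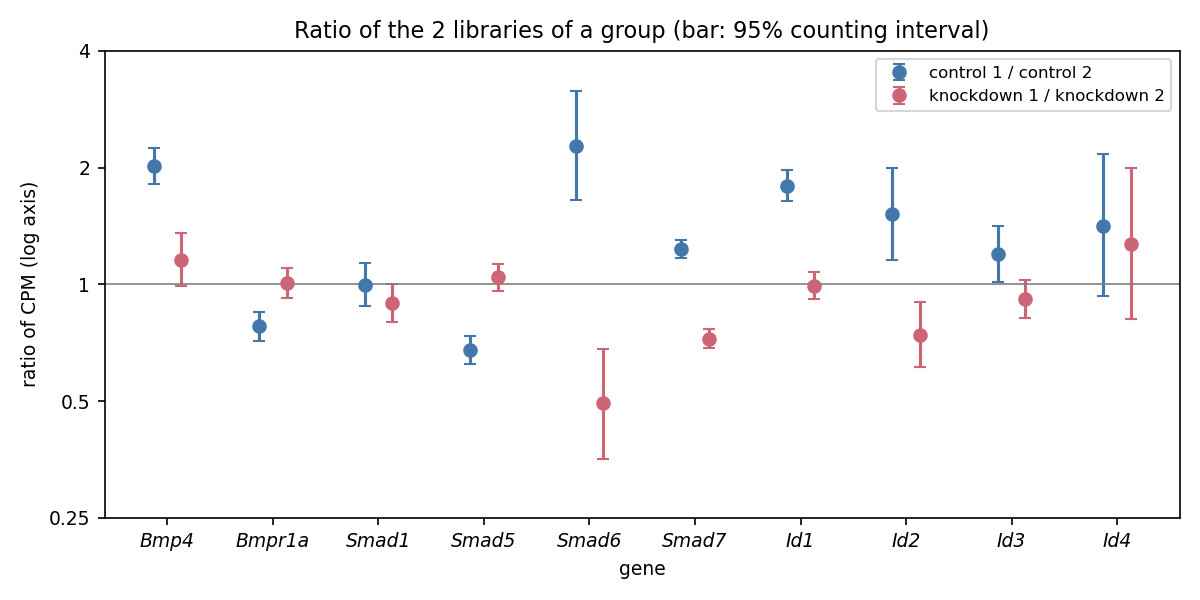
Ratio of CPM between the 2 libraries of a group for each gene, on a log axis, with 95% counting intervals. The control ratios of Bmp4 and Smad6 are 2.02 and 2.27; in the knockdown group Smad6, Smad7 and Id2 are at 0.494, 0.724 and 0.742 and Bmpr1a, Id1 and Smad5 between 0.992 and 1.04.

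**Figure D4:**
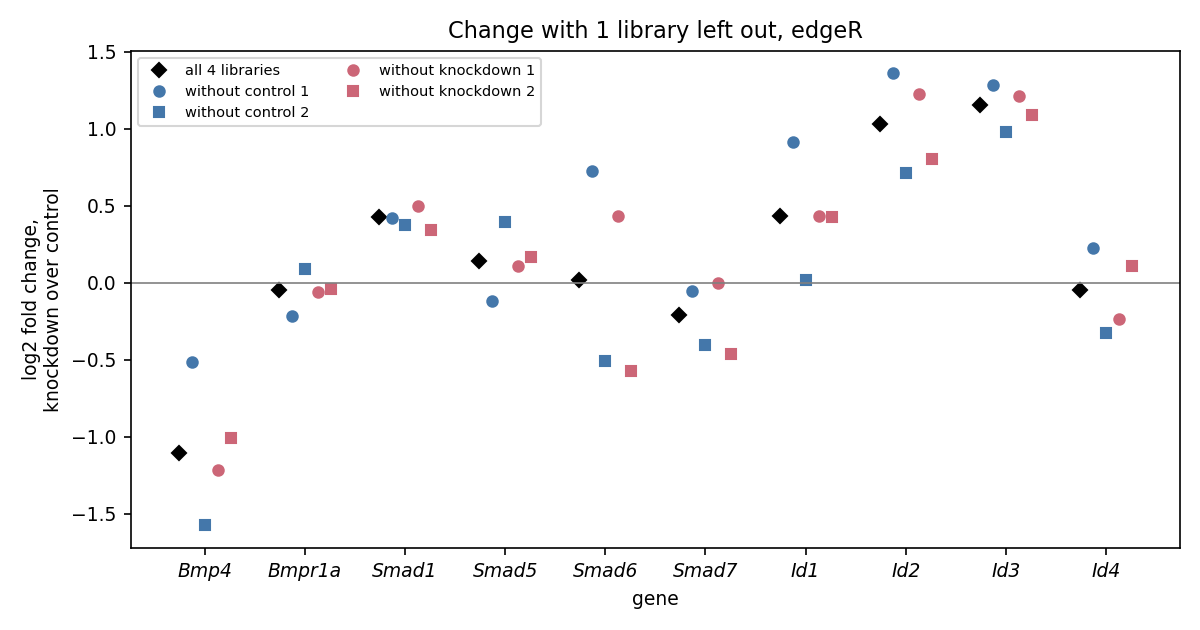
Log2 fold change of each gene with all 4 libraries and with each library left out in turn, from edgeR. Id3 stays between 0.98 and 1.29, whereas Bmp4 moves from -1.58 to -0.51 and Id1 from 0.02 to 0.91 with the control that is left out.

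The rest of the pathway was read from 6 lists of 63 further genes, of which 48 passed the filter on low counts, 4 of them through the knockdown libraries alone. Of these 48 genes, 2 rose and 0 fell, and no median is given for them because of those 4 genes. Over all tested genes 0.876% were called higher. The count called higher was 4 without control replicate 1, where 2.26% of all genes were, and 7 with DESeq2, where 3.89% were. It was 1 without control replicate 2 or knockdown replicate 1 and 0 with RLE size factors, where 0.955%, 1.61% and 0.685% of all genes were called higher. The genes that rose were Eng and Fst. Eng, which encodes endoglin, a coreceptor for ligands of the BMP and TGF-beta families, was at 69.0 and 37.5 CPM in the controls, against 163 and 156 CPM in the knockdown libraries. Both knockdown libraries were above both controls, and control 1 was again above control 2. Eng rose 2.99-fold, by 1.58 ± 0.28 on the log2 scale (SE; edgeR adjusted p = 0.0436). It was called in 12 of 13 alternatives, the exception being RLE size factors at an adjusted p of 0.0520. Fst encodes follistatin, a secreted protein that binds activins and some BMPs. It was at 1.43 and 1.30 CPM in the controls, against 8.90 and 5.47 CPM in the knockdown libraries, a rise of 5.26-fold, or 2.40 ± 0.44 on the log2 scale (SE; edgeR adjusted p = 0.0468). That call was lost in 7 of 13 alternatives, in which the value was 2.00 to 2.46, among them those without either control or without knockdown replicate 1; over all 13 its adjusted p ranged from 4.44e-05 to 0.114.

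Among the other BMP ligands 6 of 13 genes were tested and 0 were called. No median is given for them, since 2 of the 6, Bmp15 and Gdf7 (named after their values were seen), reached the filter's level of 0.531 CPM in the knockdown libraries alone. Bmp7 was at 8.51 and 9.34 CPM in the controls, against 5.13 and 10.8 CPM in the knockdown libraries. Bmp8a was at 3.80 and 1.25 CPM in the controls, against 7.06 and 10.5 CPM in the knockdown libraries, a difference of 1.79 on the log2 scale (edgeR adjusted p = 0.130). It was called with DESeq2, without a filter and without control replicate 1 (2.80), and was at 1.15 without control replicate 2. Bmp3, Bmp5 and Bmp10 had 0 counts in all 4 libraries, which allows at most 0.156 to 0.182 CPM per library by counting error alone. Bmp2, the ligand closest to BMP4 and named after its values were seen, was at 0.211 and 0.156 CPM in the controls, against 2.09 and 0.365 CPM in the knockdown libraries. It did not pass the filter on low counts and was called higher in the fit without one.

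All 9 other receptor and coreceptor genes were tested, and Eng was the 1 called. The activin and BMP type II receptor genes Acvr2b and Bmpr2 had log2 fold changes of -0.23 and -0.05 and overlapped between groups. Bmpr1b, a type I receptor gene named after its values were seen, was at 1.37 and 2.54 CPM in the controls, against 0.628 and 0.426 CPM in the knockdown libraries, a difference of -1.87 on the log2 scale (edgeR adjusted p = 0.139). Of 16 antagonist genes 11 were tested and Fst was the 1 called; Grem1, named after its values were seen, passed the filter through the knockdown libraries alone. Twsg1, which encodes a BMP-binding modulator, overlapped between groups at 79.4 and 81.0 against 70.9 and 111 CPM. Gdf3, whose product can inhibit BMPs, was at 87.1 and 48.0 CPM in the controls, against 95.8 and 111 CPM in the knockdown libraries, a difference of 0.61 on the log2 scale (edgeR adjusted p = 0.272) that was called without control replicate 1 at 1.10 and was 0.20 without control replicate 2 (adjusted p = 0.568). Crim1, named after its values were seen, differed by 1.08 on the log2 scale (edgeR adjusted p = 0.0959) and was called with DESeq2 and without a filter.

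In the intracellular list of 10 tested genes 0 were called, with a median of 0.09. The corepressor genes Ski and Skil, whose products bind SMADs, had log2 fold changes of 0.35 and -0.41 (edgeR adjusted p = 0.408 and 0.294). Smad4, the partner of SMAD1 and SMAD5, named after its values were seen, was at 124 and 130 CPM in the controls, against 151 and 122 CPM in the knockdown libraries. Zfp423, which encodes a SMAD cofactor and was also named after its values were seen, was at 57.1 and 31.9 CPM in the controls, against 97.6 and 82.0 CPM in the knockdown libraries. Its log2 fold change was 1.01 (edgeR adjusted p = 0.107), and it was 1.49 and called without control replicate 1 but 0.60 and not called without control replicate 2. It was also called with DESeq2 and without a filter. Among 9 tested genes of 12 other BMP targets 0 were called. Msx2, Gata2 and Gata3 were higher in both knockdown libraries, and Hey1, Dlx3 and Dusp9 were lower in both. Groups were apart on the higher side in 27.3% of all tested genes and on the lower side in 24.6%. Dusp9, a phosphatase gene that BMP induces in embryonic stem cells, was at 114 and 110 CPM in the controls, against 61.3 and 92.5 CPM in the knockdown libraries, a difference of -0.54 on the log2 scale (edgeR adjusted p = 0.232). Tfap2c, a trophectoderm and germline factor gene, overlapped between groups at 31.6 and 28.2 against 30.5 and 29.0 CPM. Gata3, named after its values were seen, was at 0.476 and 0.467 CPM in the controls, against 3.14 and 2.80 CPM in the knockdown libraries, a difference of 2.64 on the log2 scale (edgeR adjusted p = 0.0527). Its controls were below the filter's level, so it was tested through the knockdown libraries alone, and it was called with DESeq2 and without a filter (adjusted p = 0.0111 and 0.000643).

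ID proteins act by binding E proteins, and none of the 3 E protein genes was called by edgeR over the 16209 genes. Tcf3, which encodes E2A, was at 205 and 168 CPM in the controls, against 151 and 139 CPM in the knockdown libraries (log2 fold change -0.36, edgeR adjusted p = 0.308). Tcf12, which encodes HEB, was at 28.8 and 34.0 CPM in the controls, against 62.0 and 52.1 CPM in the knockdown libraries (log2 fold change 0.86, edgeR adjusted p = 0.0805), and was called with DESeq2 and without a filter (adjusted p = 0.0247 and 0.0150). Tcf4, named after its values were seen, differed by -0.58 on the log2 scale (edgeR adjusted p = 0.237). The groups did not overlap in these 3 genes, as in 51.9% of all tested genes.

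**Figure D5:**
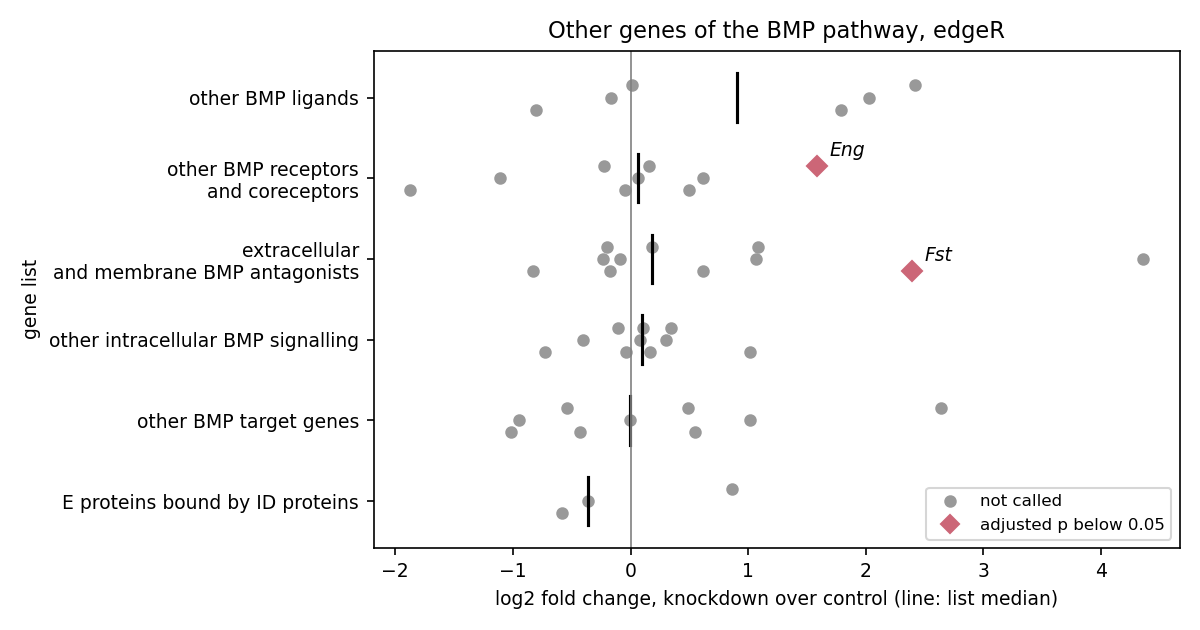
Log2 fold change, knockdown over control, of the 48 tested genes in 6 lists of other BMP pathway genes, from edgeR. Lines are list medians. Those of the ligand, antagonist and target lists include genes that passed the filter through the knockdown libraries alone, which raises them, so they are not read as results. Diamonds mark Eng and Fst, the 2 genes past an adjusted p of 0.05. The point at the far right is Grem1 (named after its values were seen), at or below 0.785 CPM in every library and not called.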

How the data were processed

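The authors deposited 1 table of raw read counts per gene for 2 control and 2 knockdown libraries, made from total RNA with an mRNA-seq kit per the labels' protocols. The submitters' processing notes name cutadapt, HISAT2, featureCounts and the mm10 build. Tool versions, the gene annotation, how strand was counted and how reads with several positions were handled were not stated in the sources used here. All 92 spike-in rows were at 0 and were left out. Of the other 35976 rows, 27 had a symbol that a spreadsheet turned into a date. Totals ran from 16383323 to 19867689 counts, so the number of libraries limits precision more than counting does, except for genes of a few CPM. Libraries of 1 group differed well beyond sampling noise (chi-square over its degrees of freedom 30.8 for controls, 14.4 for knockdown), and each counted as 1 replicate.

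The filterByExpr function of edgeR 4.0.16 in R 4.3.3 kept 16209 genes. TMM factors were 0.954 to 1.03. The two-sided quasi-likelihood test of edgeR had no term besides group. Benjamini-Hochberg adjustment ran over all tested genes, with a call below 0.05. SE is the absolute log2 difference over the square root of F, and 95% intervals use the t distribution with the test's degrees of freedom. Alternatives were RLE, upper-quartile and unscaled library sizes, 2 other filters, DESeq2 1.42.0, limma-voom (limma 3.58.1), a replicate block, each library left out and thinning to the shallowest library. The procedure was tested on simulated counts. Positions came from RefSeq on GRCm38.p6, and exon lengths and overlaps from GENCODE M21. The 10 genes, the lists and the alternatives were chosen with earlier results of these data known. By rule the text names all 10 genes and, from each other pathway list, every called gene and the 2 other genes with the highest mean CPM. Further genes with values are marked as named after these were seen, except genes at 0 in every library. The rule also names the stem cell markers Pou5f1, Sox2 and Nanog.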

Additional observations from a re-analysis of the deposited data

How the results depend on the processing

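Of 130 values of the 10 genes under 13 alternatives, 111 kept direction and side of the threshold, 7 passed it and 12 changed sign. Id3 was called higher with DESeq2, without a filter, with the replicate block and without control replicate 1, so 1 of the 10 genes was called higher in each of these. Bmp4 was called lower with DESeq2, without a filter and without control replicate 2, which made 1 gene called lower. With 1 library left out both counts ranged from 0 to 1. The median of the 10 genes ranged from 0.054 to 0.32 with 1 library left out, and was highest without control replicate 1.

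Sign changes were in genes near 0. Smad6 was at -0.0086 with RLE, -0.0097 with upper-quartile factors, -0.0056 without a filter, -0.023 with DESeq2 and -0.047 after thinning. Id4 was at 0.0089 and Tfap2c at 0.044 with library size only, and Tfap2c was at 0.0015 with the filter of 1 CPM. With 1 library left out, Smad6 ranged from -0.58 to 0.72, Id4 from -0.33 to 0.22, Smad5 from -0.12 to 0.39 and Bmpr1a from -0.22 to 0.090. In the same fits Tfap2c ranged from -0.14 to 0.074, Bmp7 from -0.80 to 0.27, Bmpr2 from -0.20 to 0.093, Acvr2b from -0.57 to 0.046, Twsg1 from -0.18 to 0.47, Smad4 from -0.058 to 0.25, Sox2 from -0.39 to 0.24 and Nanog from -0.54 to 0.017. Genes that kept their sign but moved by over 1.5 times were, among others, Ski (0.12 to 0.55), Skil (-0.62 to -0.22), Dusp9 (-0.87 to -0.28) and Tcf4 (-0.85 to -0.36).

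Other pathway genes called higher numbered 0 with RLE, 1 with upper-quartile factors, library size only or limma-voom, 7 with DESeq2, 10 without a filter, 5 with the replicate block and 1 to 4 with 1 library left out. Bmpr1b was the 1 gene called lower, without a filter. Over all genes the 142 calls higher and 90 lower became 996 and 721 without a filter, 591 and 483 with DESeq2, and 428 and 228 with the replicate block, and 57 were lower with library size only. With 1 library left out they ranged from 108 to 389 and from 45 to 198. The cause was not tested. Same-numbered libraries did not deviate together (r = -0.059 across genes). With 2 libraries per group that value cannot settle whether the numbers pair the libraries, and the labels do not state a pairing. Fits with the block or without 1 library had 1 residual degree of freedom, and the latter take the spread from the group that kept both libraries.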
